A study of Mus musculus with 18 samples.

Results

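Complement and coagulation genes were examined in mouse liver RNA-seq as a list of 40 genes chosen by symbol, of 23337 gene names in the count table of the female mice and 38924 gene IDs in that of the males. All 40 were matched and tested in the female table and 39 in the male table, where Klkb1 was not analysed here. The samples were livers of 18 mice at 8 weeks of age, in 6 groups of 3, all on a diet in which fat supplied 45% of the calories. LDP males (mice 8, 10 and 11) and LDP females (39, 52 and 54) were C57BL6J mice given low-dose penicillin (LDP) from birth, and control males (5, 6 and 7) and control females (29, 30 and 32) were C57BL6J mice without antibiotic; all were weaned at week 4 and put on the high-fat diet at week 6. Recipients of LDP microbiota (2, 5 and 8) and recipients of control microbiota (1, 3 and 7) were germ-free Swiss Webster females colonised at week 3 and given no antibiotic themselves, so strain as well as the route of exposure separates them from the other females. The labels do not give the penicillin dose, the cages or litters, or how many donors the microbiota came from, so the p-values measure the spread between these mice, some of which may have shared a cage or donor.

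Most plasma proteins of the complement and clotting systems are made by hepatocytes. In clotting, a cascade of serine proteases ends in thrombin, which cuts fibrinogen into fibrin; antithrombin and the protein C system restrain it, and plasmin dissolves the clot. In complement, lectins or antibody-bound C1 activate proteases that cleave C4, C2 and C3, and the terminal components then assemble a pore in the target membrane. Several of these genes, the fibrinogen chains above all, are acute-phase genes that hepatocytes raise in response to interleukin 6. Gut bacteria bear on the system both as a source of menaquinones (vitamin K) for the carboxylation of clotting factors and as a source of microbial products that reach the liver by the portal vein.

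The 3 fibrinogen genes lie together on chromosome 3 and encode the chains of 1 protein, so their promoters are shown first. In GENCODE M21 (GRCm38), Fgg, the gamma chain, lies at chr3:83007724-83015049 on the plus strand, Fga, the alpha chain, at chr3:83026076-83033627 on the plus strand and Fgb, the beta chain, at chr3:83040141-83049863 on the minus strand, with 11026 bases between Fgg and Fga and 6513 between Fga and Fgb. The 250 bases before each RefSeq transcription start (GRCm38.p6) are printed 5′ to 3′ on the strand of the gene, in lower case, with matches to any of 4 motifs in capitals. The windows are chr3:83025903-83026152 (plus strand), chr3:83049864-83050113 (minus strand) and chr3:83007474-83007723 (plus strand); the end of the Fga window lies inside the GENCODE gene model, which starts further upstream.
Fga: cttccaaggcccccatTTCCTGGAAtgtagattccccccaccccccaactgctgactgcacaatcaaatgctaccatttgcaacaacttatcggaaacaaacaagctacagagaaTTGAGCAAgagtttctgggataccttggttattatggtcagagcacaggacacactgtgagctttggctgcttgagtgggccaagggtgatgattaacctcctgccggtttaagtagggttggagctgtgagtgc
Fgb: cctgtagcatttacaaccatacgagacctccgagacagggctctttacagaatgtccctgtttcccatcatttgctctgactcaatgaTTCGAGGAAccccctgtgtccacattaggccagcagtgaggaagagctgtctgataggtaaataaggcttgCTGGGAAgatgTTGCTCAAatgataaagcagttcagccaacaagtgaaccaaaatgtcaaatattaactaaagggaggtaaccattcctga
Fgg: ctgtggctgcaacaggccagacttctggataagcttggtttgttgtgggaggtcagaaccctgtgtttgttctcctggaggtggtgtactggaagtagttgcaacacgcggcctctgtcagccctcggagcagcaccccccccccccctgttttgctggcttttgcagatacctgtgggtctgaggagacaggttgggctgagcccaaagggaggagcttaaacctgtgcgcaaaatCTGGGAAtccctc
The motifs, searched on both strands, were TTGCNNAA for C/EBP, TTCNNNGAA for STAT, the interleukin 6 response element (the single run of capitals in the Fgg line) and the consensus of HNF1 (a palindrome, named only). The Fga window held TTGAGCAA (reverse strand of the C/EBP motif) at -135 to -128 and TTCCTGGAA (STAT) at -234 to -226, counted back from the start. In the Fgb window there were TTGCTCAA (C/EBP) at -80 to -73, the interleukin 6 element at -91 to -85 and TTCGAGGAA (STAT) at -162 to -154, and in the Fgg window the interleukin 6 element at -13 to -7. Of the 30 members with a promoter in the RefSeq table, 9 (30%) held the C/EBP letters, against 10.84% of all 27025 genes; 6 (20.0%) held the STAT letters, against 8.13%; 4 (13.3%) held the interleukin 6 element, against 10.4%; and 0 held the HNF1 letters, against 0.01%. These are matches of letters, and binding was not measured.

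Library depth was 70336366 to 74418889 counts per male and 17937005 to 28646168 per female, and members held 4.36% to 6.69% of the counts of a library. In males the share was 4.36% to 4.58% in LDP mice and 4.49% to 4.56% in control mice. LDP females held 5.34% to 5.65%, above the 4.92% to 5.05% of control females in every mouse. Recipients of LDP microbiota held 5.31% to 5.61%, within the wide range of recipients of control microbiota, 4.94% to 6.69%. Levels below are CPM (counts scaled to a common library size) on TMM-scaled library sizes, given in order of mouse number, and each change is a log2 ratio of the LDP group to its control. Levels are not compared between males and females, whose counts come from separate tables.

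Set against gene length as given in the male table, the order of levels was led by the clot substrate in all 3 experiments. Fgb averaged 2680 CPM per kb over the 6 males, 2842 over the 6 C57BL6J females and 3329 over the 6 recipients, followed by Fgg at 2218, 2179.8 and 2546. C3, the central complement component, and Fga came next, with C3 at 1462 and Fga at 1571 CPM per kb in males, C3 at 2039 and Fga at 1525 in females and C3 at 2302 and Fga at 1683 in recipients. Vtn (vitronectin, an inhibitor of the terminal pore), Plg (plasminogen) and Serpinc1 (antithrombin) followed in places 5 to 7. The lowest levels per kb in the female table were those of C6, a terminal component, at 10.2 in females and 6.12 in recipients, and of Pros1 (protein S, the cofactor of protein C). In males the lowest was Cfb, factor B of the alternative pathway, at 11.3 CPM per kb. Cfb needs care: 79.5% of its annotated exonic bases, and 42.8% of those of its neighbour C2, are shared with Gm20547, a gene model on the same strand that spans both. Gm20547, looked up after the Cfb values were seen, had 0 counts in every male library, while Cfb had 2200 to 2464 counts per male library and 28580 to 47456 per female library. The part that this overlap plays in the male level was not tested.

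By the main test, edgeR's quasi-likelihood F test with Benjamini-Hochberg adjustment over all genes, no member passed an adjusted p of 0.05: 0 among the 39 tested in males, and 0 among 40 both in females and in recipients. The lowest adjusted p of a member was 0.92 in males, 0.999 in females and 0.846 in recipients. Calls were rare among all genes too: 0.00648% of 15438 genes passed in males and 0.00782% of 12780 in recipients, and in females 0% of 12914 did. DESeq2, run as an alternative, passed 0 members in males (0.272% of all genes), 0 in females (0.116%) and 1 in recipients (0.219%), the fibrinogen-like gene Fgl1. In recipients its filter on mean count left 10 of 40 members without an adjusted p. The 0.219% is of all genes tested, with those left out by the filter included. It is therefore below the share among genes that could be called, which was not computed. The filter left out members with means as high as 197 CPM (Klkb1), so the 1 call cannot be set against 0.219%. At an unadjusted p under 0.05, edgeR gave 0 members in males against 5.23% of all genes, 2 members in females (5.0%) against 4.51%, and 3 members in recipients (7.5%) against 5.11%; DESeq2 gave 0, 2 and 4. These shares are near those of all genes. The 2 in females, Mbl2 and C2, were higher in LDP mice; of the 3 in recipients, Mbl1 and Cfi were higher and Fgl1 lower.

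The direction of the members differed little from that of other genes in males and recipients, while in females most members were on the higher side by small amounts. In LDP males 19 of 39 members (48.7%) were higher than in control males, against 50.7% of all genes, with a median log2 change of -0.002. In LDP females 34 of 40 (85.0%) were higher than in control females, against 50.9% of all genes, with a median of 0.084 where that of all genes was 0.003. In recipients of LDP microbiota 21 of 40 (52.5%) were higher than in recipients of control microbiota, against 48.4%, with a median of 0.003. The genes share mice and scaling, so the 34 of 40 is a description and carries no test. In mouse by mouse terms, LDP females 39 and 52 had 35 and 31 members above the mean of the control females and LDP female 54 had 22, against 18, 20 and 25 in control females 29, 30 and 32. The ranges set by the intervals were narrow: the 95% interval lay within a 1.5-fold change in either direction for 38 of 39 members in males (all but C6). In females it did so for 37 of 40, and in recipients for 31 of 40. The median SE of a member's log2 change was 0.079 in males, 0.124 in females and 0.141 in recipients, below the 0.124, 0.143 and 0.171 of all genes.

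**Figure D1:**
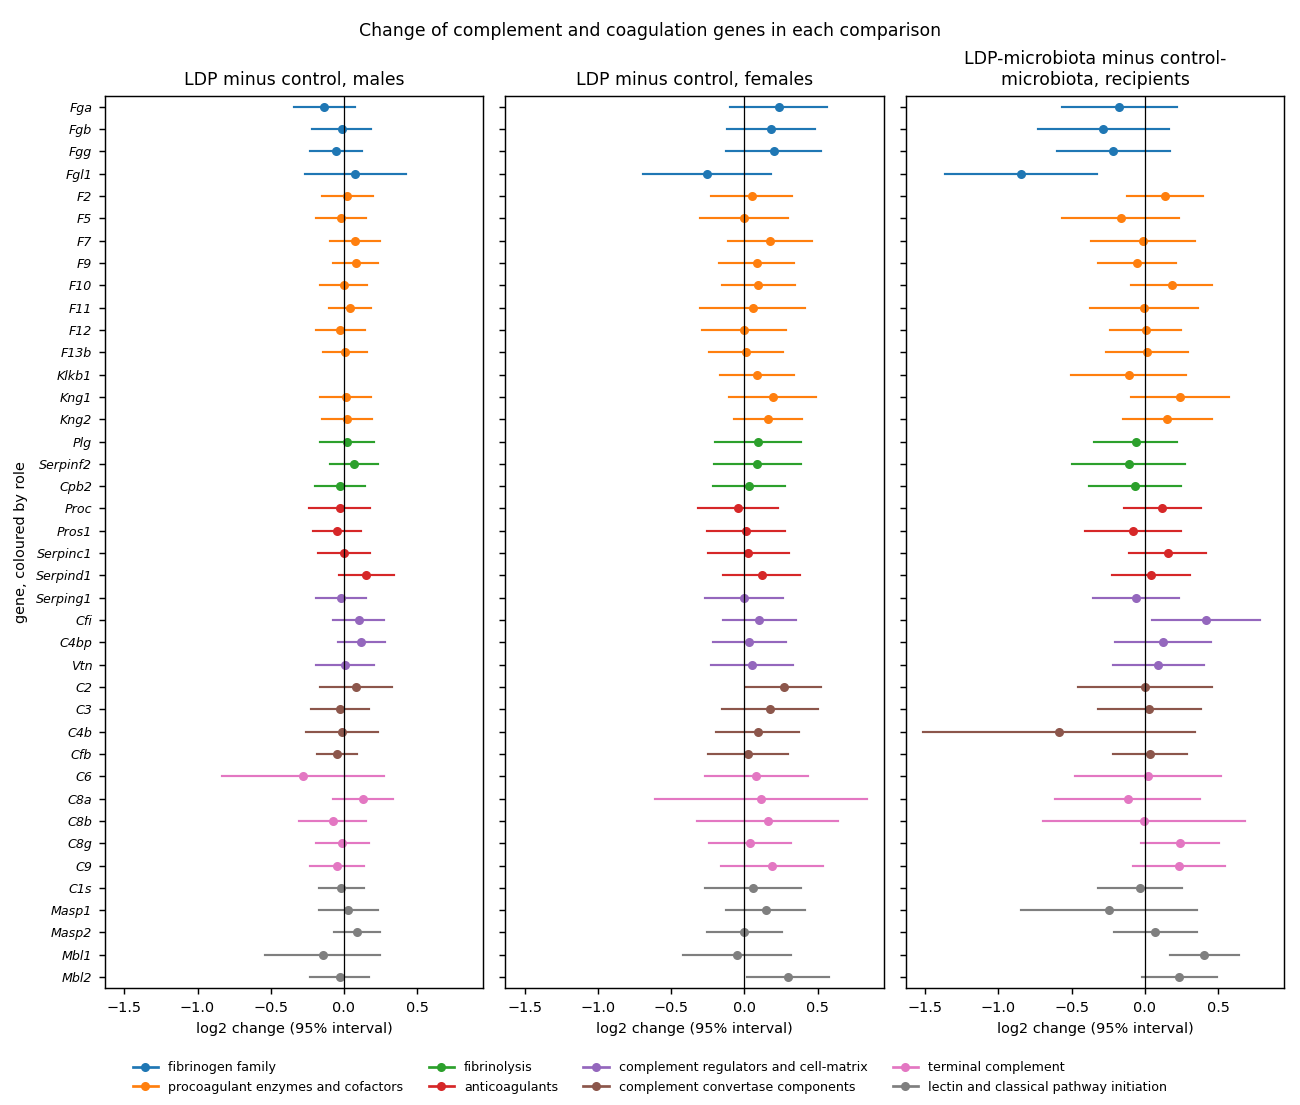
Log2 change of each complement and coagulation gene (points) with its 95% interval (lines) in males, females and recipients, by role; positive values are higher in the LDP group. Most intervals cross 0, the male intervals are the narrowest, and in recipients Fgl1 at -0.84 lies furthest from 0.

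Cell type markers were counted beside the members. Hepatocyte markers summed to 10.8% to 11.6% of scaled counts in LDP males, above 8.91% to 10.2% in control males, with Alb (albumin) the main part (log2 0.27, 95% interval 0.03 to 0.51); 5 of 10 hepatocyte markers were higher there. They summed to 17.5% to 18.2% in LDP females against 17.2% to 18.8% in control females (4 of 10 higher), and to 18.0% to 21.2% in recipients of LDP microbiota against 14.6% to 18.2% in recipients of control microbiota (6 of 10 higher). Kupffer cell markers, of liver macrophages, summed to 355 to 391 CPM in LDP males, below 416 to 501 CPM in control males, with 7 of 8 lower and 4 of them at an unadjusted p under 0.05. By edgeR 0 of the 8 passed, and by DESeq2 1 did (adjusted p = 0.0289), where DESeq2 passed 0.272% of all genes. Mesothelial markers summed to 7.83 to 20.4 CPM in LDP females, above 4.53 to 5.62 CPM in control females (4 of 4 higher, 3 at an unadjusted p under 0.05). Stellate cell markers summed to 482 to 623 CPM against 421 to 511 CPM in the same mice (7 of 8 higher). In LDP males 4 of 4 mesothelial and 7 of 8 stellate cell markers were also higher, 0 of them at an unadjusted p under 0.05. Both sums overlapped those of control males. In recipients of LDP microbiota 1 of 2 mesothelial markers tested and 5 of 8 stellate cell markers were higher. Among all genes, 5.23% in males and 4.51% in females were at an unadjusted p under 0.05. Every one of these lists had all of its markers counted in at least 1 mouse of each group. In bulk liver, fewer cells of a type and less RNA per cell cannot be told apart, and the part of these cell type markers in the member values was not tested.

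With all mice in the fit, the log2 changes of the 3 fibrinogen chains were below 0 in LDP males and recipients of LDP microbiota and above 0 in LDP females, and none of these changes passed. In recipients of LDP microbiota, Fgb stood at 5292, 4437 and 5083 CPM, against 5608, 7880.3 and 4534 CPM in recipients of control microbiota. Fgg in the same mice stood at 4008, 3321 and 3727 CPM against 3965, 5361 and 3513 CPM, and Fga at 5757, 4953 and 5217 CPM against 5382, 7638 and 4957 CPM. Control-microbiota recipient 3 was the highest mouse for all 3 chains, and LDP-microbiota recipient 5 and control-microbiota recipient 7 were the lowest pair for all 3. The changes were -0.28 for Fgb (SE 0.197, 95% interval -0.73 to 0.16), -0.22 for Fgg (95% interval -0.60 to 0.17) and -0.17 for Fga (95% interval -0.57 to 0.22); without control-microbiota recipient 3 they were -0.035 for Fgb, -0.017 for Fgg and 0.042 for Fga, so the direction of Fga turned with that mouse.

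Among females the chains were higher in LDP mice by a similar small amount each. Fga was 5401, 5750.5 and 5456 CPM in LDP females, against 5331, 4749.8 and 4038 CPM in control females (log2 0.23, SE 0.146, 95% interval -0.10 to 0.56). These groups did not overlap, although LDP female 39 and control female 29 were close to each other. Fgb was 4658, 5067 and 5159.6 CPM against 4723, 4388 and 4033 CPM, and Fgg 3341, 3758 and 3839 CPM against 3528, 3224 and 2765 CPM, and both overlapped. Control female 32 was the lowest mouse for all 3 chains. In males Fga was 4739.7, 5468 and 4879.7 CPM in LDP mice, against 5195, 5646 and 5717 CPM in control mice, a log2 change of -0.13 (SE 0.093, 95% interval -0.34 to 0.08), and the ranges overlapped. Fgg was 3436, 3477 and 3298 CPM in LDP males, against 3524, 3606 and 3473 CPM in control males (log2 -0.05, 95% interval -0.23 to 0.12). Fgb was at a log2 change of -0.02 in males, and at 0.04 without LDP male 11.

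Whether the effect differed between experiments was tested directly over all genes in each fit, and 0 members passed. The lowest adjusted p by edgeR was above 0.99 for males minus females and 0.788 for recipients minus females. Males and females came from separate count tables of different depth, so sex cannot be told apart from table in the first contrast. DESeq2 also passed 0 members in either contrast, where it passed 0.00784% and 0.0903% of all genes. In males minus females Fga had the smallest p of the members, with a difference of -0.37 (SE 0.161, 95% interval -0.71 to -0.02), with Mbl2 at -0.33 (95% interval -0.64 to -0.01) and Fgg at -0.25 (95% interval -0.58 to 0.07). The 2 members at an unadjusted p under 0.05 stand beside 2.67% of 12749 genes. In recipients minus females the difference was 0.47 for Mbl1 (SE 0.197, 95% interval 0.05 to 0.90), -0.45 for Fgb (95% interval -0.98 to 0.08) and -0.40 for Fgg (95% interval -0.89 to 0.09). That is 1 member at an unadjusted p under 0.05, where 5.94% of 13295 genes reached it.

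Fgl1 encodes a fibrinogen-like protein that hepatocytes secrete, which does not form fibrin and is known as a ligand of LAG-3, a receptor on T cells. It had the log2 change furthest from 0 of any member in the 3 comparisons. The gene lies at chr8:41191434-41215156 on the minus strand. Recipients of LDP microbiota had 746, 588 and 581 CPM, against 1155, 1498 and 784 CPM in recipients of control microbiota. All 3 recipients of LDP microbiota were below all 3 recipients of control microbiota, the nearest being LDP-microbiota recipient 2 and control-microbiota recipient 7. The log2 change was -0.84 (SE 0.227, 95% interval -1.36 to -0.33), a level 0.557 times that of the controls, with an adjusted p of 0.846 by edgeR. DESeq2 gave the same size of change with an adjusted p of 0.0145. Its filter on mean count left 10 of 40 members without an adjusted p here, so it adjusted over fewer genes than edgeR. The call therefore rests on the choice of test and on the genes adjusted over. By edgeR the log2 change of Fgl1 ran from -1.05 without control-microbiota recipient 7 to -0.60 without control-microbiota recipient 3. Its unadjusted p was under 0.05 whichever mouse was left out. In LDP females Fgl1 was 447, 569 and 474 CPM, against 775, 531 and 473 CPM in control females (log2 -0.26, 95% interval -0.69 to 0.18), with overlap; without control female 29 the change is -0.016. LDP males had 240.2, 298 and 293 CPM, against 317, 257 and 214 CPM in control males (log2 0.08, 95% interval -0.26 to 0.42), also overlapping.

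**Figure D2:**
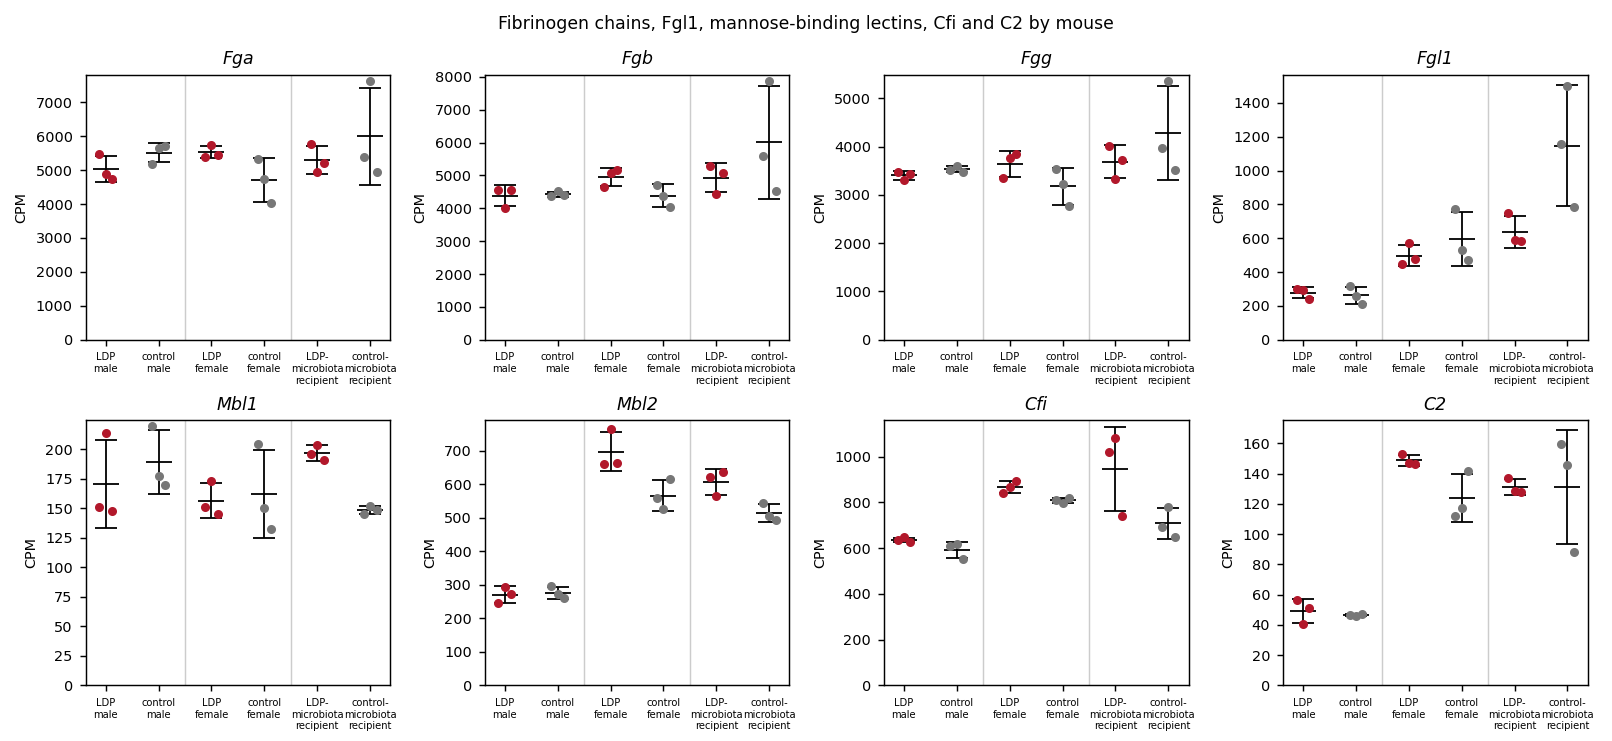
CPM of 8 genes in each mouse (points; red, LDP groups; grey, control groups), with the mean and SD of 3 mice (black bars). Fgl1 is lower and Mbl1 higher in all 3 recipients of LDP microbiota than in any recipient of control microbiota, and control-microbiota recipient 3 carries the highest fibrinogen values.

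The lectin pathway is started by mannose-binding lectins, which recognise microbial sugars, and by their proteases. Mbl1 (chr14:41151458-41159601, plus strand) was 196, 204 and 190.4 CPM in recipients of LDP microbiota, against 145, 152 and 148 CPM in recipients of control microbiota. The groups were tight and did not overlap. The log2 change was 0.41 (SE 0.104, 95% interval 0.17 to 0.64), 1.33-fold, with an adjusted p of 0.846 by edgeR. It stayed between 0.38 and 0.43 when any 1 mouse was left out, with an unadjusted p under 0.05 each time. DESeq2 gave no adjusted p for 10 members in recipients, Mbl1 among them, because of its independent filter on mean count; its unadjusted p for Mbl1 was also under 0.05. In C57BL6J mice Mbl1 was 151, 173 and 145 CPM in LDP females against 204, 150.2 and 132 CPM in control females (log2 -0.05, 95% interval -0.42 to 0.31) and 147, 151 and 214 CPM in LDP males against 219.5, 177 and 169 CPM in control males (log2 -0.15, 95% interval -0.54 to 0.25), with wide overlap. The difference of effects for Mbl1, recipients minus females, did not pass (0.47, adjusted p = 0.788 by edgeR). Recipients were not tested against males.

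Mbl2 (chr19:30232942-30239687, plus strand), the other mannose-binding lectin, was higher in every LDP female than in any control female. It was also higher in every recipient of LDP microbiota than in any recipient of control microbiota. LDP females had 662, 765 and 665 CPM, against 560.5, 525 and 615 CPM in control females, a log2 change of 0.30 (SE 0.124, 95% interval 0.02 to 0.58). In recipients of LDP microbiota it was 622, 564 and 636 CPM, against 546, 507 and 495 CPM in recipients of control microbiota (log2 0.24, SE 0.114, 95% interval -0.02 to 0.49). LDP males had 272, 245 and 295 CPM, against 296, 272 and 261 CPM in control males (log2 -0.03, 95% interval -0.23 to 0.17), and overlapped. The mannose-binding lectin proteases Masp1 and Masp2 and the classical pathway protease C1s had log2 changes of -0.02 to 0.09 in males, 0.00 to 0.14 in females and -0.24 to 0.07 in recipients. Masp2 shares 54.9% of its exonic bases with Tardbp on the opposite strand, and the strandedness of the libraries is not stated.

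Of the convertase components, which form the enzymes that cleave C3, C2 had the log2 change furthest from 0 in females. C2 was 153, 147 and 146 CPM in LDP females, against 112, 117 and 142 CPM in control females. The LDP mice were all above the controls, and control female 32 was close to them; the log2 change was 0.27 (SE 0.114, 95% interval 0.01 to 0.52). C3 was 10874, 11797 and 10691 CPM against 9074, 9225 and 11263 CPM in the same mice (log2 0.17, 95% interval -0.16 to 0.50), with overlap. C4b, the substrate of the classical and lectin proteases, was the most variable of these genes among recipients, at 1425, 1553 and 809 CPM in recipients of LDP microbiota, against 2264, 2443 and 982 CPM in recipients of control microbiota. LDP-microbiota recipient 8 and control-microbiota recipient 7 stood well below the other 4, and the log2 change was -0.59 (SE 0.389, 95% interval -1.52 to 0.34), from -0.89 without control-microbiota recipient 7 to -0.35 without LDP-microbiota recipient 8. C4b has a close paralog, C4a, and how reads that match both were counted is not given. Cfb was 31.3, 31.4 and 31.8 CPM in LDP males, against 33.8, 32.2 and 31.6 CPM in control males (log2 -0.05, 95% interval -0.18 to 0.09).

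Control-microbiota recipient 7 was low across the whole list: 2 of 40 members were above the mean of its own group, against 27 in recipient 1 and 34 in recipient 3. In recipients of LDP microbiota 2, 5 and 8 the counts were 29, 21 and 21. Members summed to 4.88% of scaled counts in control-microbiota recipient 7 and 6.61% in control-microbiota recipient 3, while recipients of LDP microbiota lay between, at 5.54% to 5.71%. Hepatocyte markers summed to 18.2% of scaled counts in control-microbiota recipient 7, the highest of its group. Their part in the low member values of that mouse was not tested. The median log2 change of the members was -0.070 without that mouse and 0.068 without control-microbiota recipient 1.

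**Figure D3:**
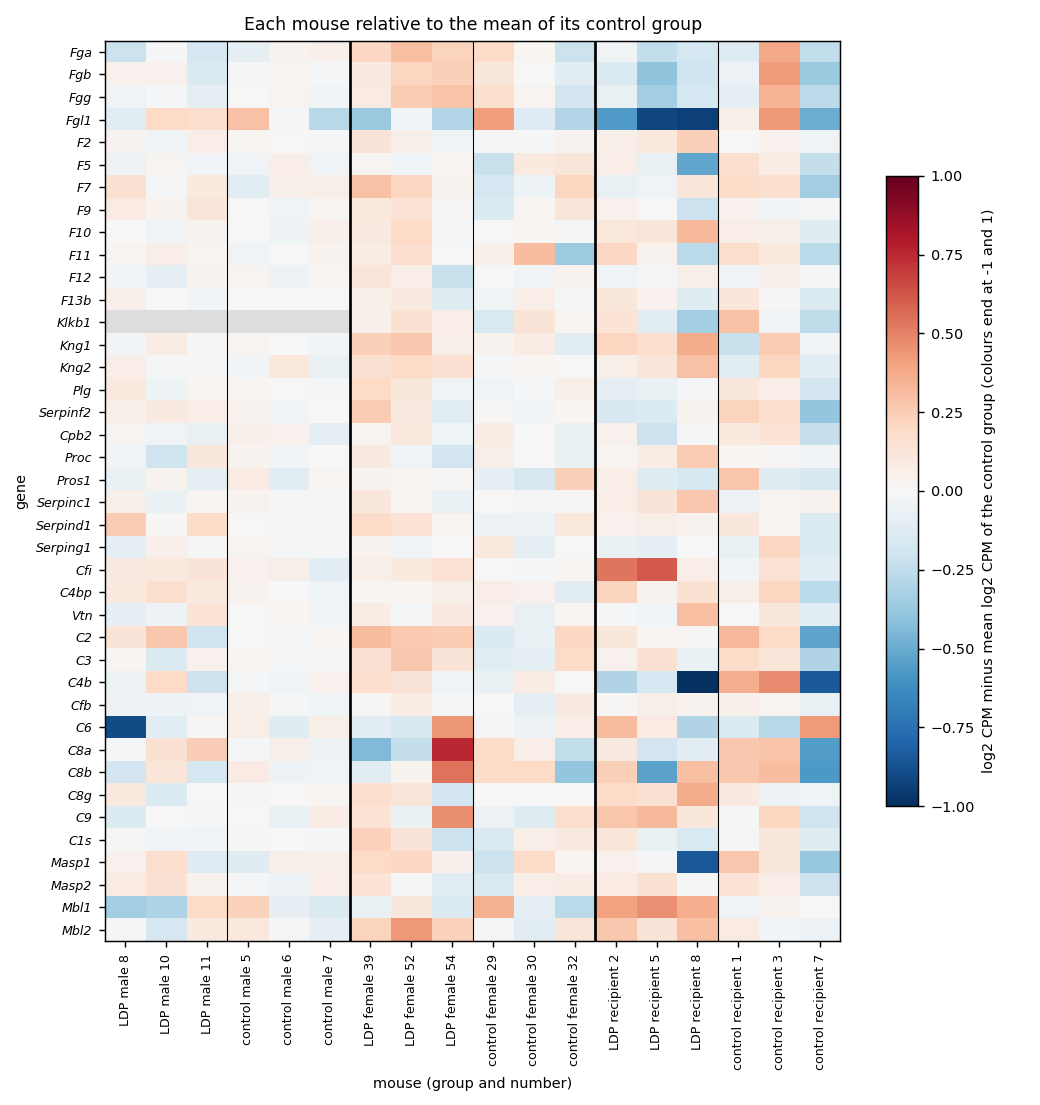
Log2 CPM of each member in each mouse minus the mean log2 CPM of its control group (red, higher; blue, lower; colours end at -1 and 1; grey, not analysed in males). Control-microbiota recipient 7 is blue for nearly the whole list, and LDP females 39 and 52 are mostly red.

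The complement regulator Cfi (chr3:129835884-129875332, plus strand) encodes factor I, the protease that inactivates C3b and C4b. Its mean was higher in LDP males, LDP females and recipients of LDP microbiota than in their controls, by small to moderate amounts. Recipients of LDP microbiota had 1021, 1082 and 739 CPM, against 691, 782 and 651 CPM in recipients of control microbiota, with LDP-microbiota recipient 8 inside the control range. The log2 change was 0.42 (SE 0.163, 95% interval 0.05 to 0.79, adjusted p = 0.846 by edgeR). LDP females had 841, 866 and 895 CPM, against 810.1, 799 and 818 CPM in control females (log2 0.10, 95% interval -0.15 to 0.35), and LDP males 629, 634 and 647 CPM, against 611, 617 and 552 CPM in control males (log2 0.10, 95% interval -0.07 to 0.28). In both C57BL6J comparisons the groups did not overlap. C4bp, which serves as a cofactor of factor I, was 648, 676 and 646 CPM in LDP males, against 620.1, 605 and 588 CPM in control males (log2 0.12, SE 0.072, 95% interval -0.04 to 0.28), and overlapped in the other comparisons. Serping1, the C1 inhibitor, was 1123, 1074 and 1093 CPM in LDP females, against 1171, 1023 and 1103 CPM in control females, a log2 change of -0.00. Vtn had log2 changes of 0.01, 0.05 and 0.09 in males, females and recipients, with every interval including 0. It was 2521, 2505 and 3146 CPM in recipients of LDP microbiota, against 2558, 2754 and 2359.9 CPM in recipients of control microbiota.

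No terminal complement gene passed, and 2 single mice stood apart. C6 was 244, 421 and 458 CPM in LDP males, against 472, 418 and 474 CPM in control males; LDP male 8 stood far below every other male, and the log2 change of -0.28 (SE 0.229, 95% interval -0.83 to 0.27) comes to -0.05 without it. C8a was 237, 272 and 539.8 CPM in LDP females, against 364, 335 and 270.5 CPM in control females, a log2 change of 0.11 that was -0.35 without LDP female 54. LDP female 54 was the highest of the 6 females for C8a and also for C6 (54.4 CPM), C8b (256 CPM) and C9 (349 CPM), but the lowest for C8g (279.99 CPM). In males C8a was 949, 1067 and 1135 CPM in LDP mice, against 953, 1000.2 and 924 CPM in control mice (log2 0.13, 95% interval -0.07 to 0.33). C9, which forms the wall of the pore, was 341, 352 and 304 CPM in recipients of LDP microbiota, against 278, 326 and 244 CPM in recipients of control microbiota (log2 0.23, 95% interval -0.08 to 0.54), with overlap. C8g, the gamma chain of C8, was 455, 444 and 515 CPM in recipients of LDP microbiota, against 425, 384 and 387 CPM in recipients of control microbiota, with no overlap (log2 0.24, SE 0.117, 95% interval -0.02 to 0.51).

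**Figure D4:**
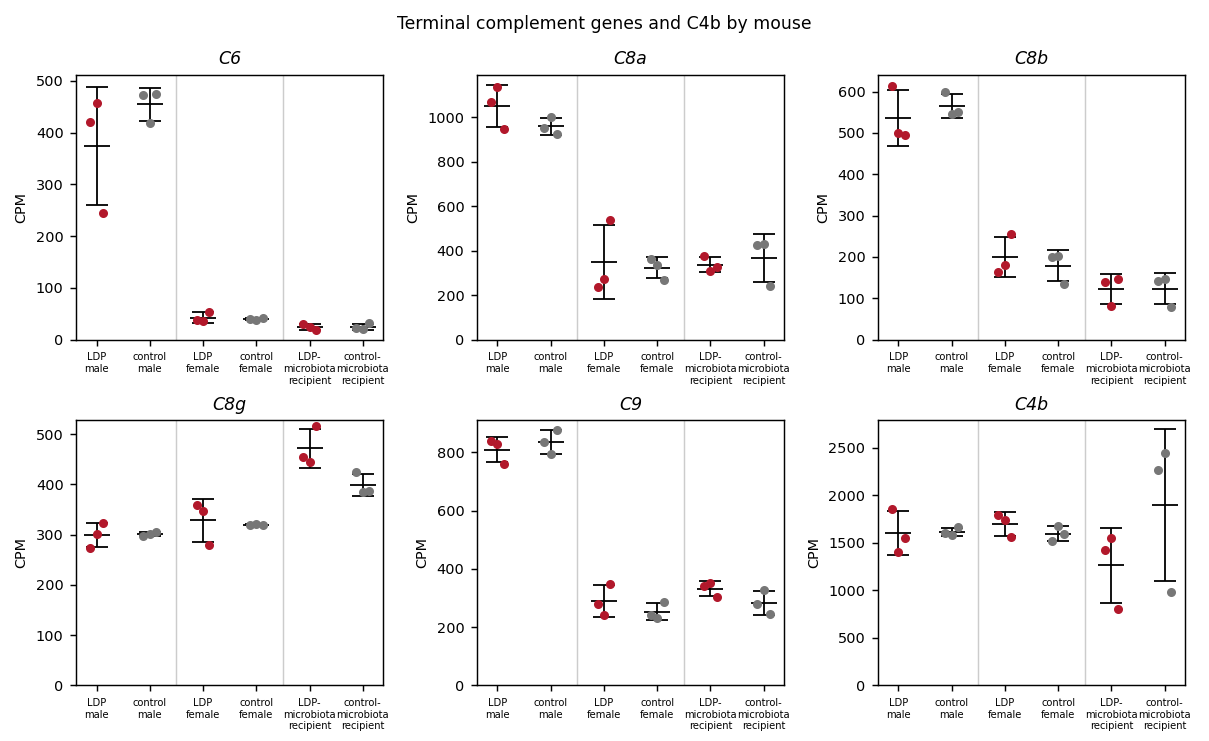
CPM of 5 terminal complement genes and C4b in each mouse (points; red, LDP groups; grey, control groups), with the mean and SD of 3 mice (black bars). LDP male 8 is the low point for C6 in males, LDP female 54 the high point for C8a in females, and C4b spreads widely in both recipient groups.

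Procoagulant genes and clotting inhibitors had small log2 changes. The 10 procoagulant members tested in males had log2 changes of -0.03 to 0.08, the 11 in females 0.00 to 0.19 and the 11 in recipients -0.16 to 0.24, and the 95% interval of every one of them lay within a 1.5-fold change. Kng2, which with Kng1 encodes kininogens and is a close paralog of it, was 442, 453 and 441 CPM in LDP females, against 392, 404 and 398 CPM in control females, without overlap (log2 0.16, SE 0.103, 95% interval -0.07 to 0.40). Kng1, the procoagulant member of highest level, was 2723, 2627 and 3028 CPM in recipients of LDP microbiota, against 2007, 2793 and 2304 CPM in recipients of control microbiota (log2 0.24, 95% interval -0.10 to 0.57). F2, prothrombin, was 2251, 2330.3 and 2559 CPM against 2154, 2233 and 2109.7 CPM in the same mice, without overlap (log2 0.14, 95% interval -0.12 to 0.40). Of the anticoagulants, Serpind1 (heparin cofactor II) was 667, 565 and 634 CPM in LDP males, against 559, 565 and 554 CPM in control males (log2 0.15, SE 0.083, 95% interval -0.04 to 0.34), and LDP male 10 lay inside the control range. Serpinc1 was 2441, 2544 and 2809 CPM in recipients of LDP microbiota, against 2238, 2376 and 2385 CPM in recipients of control microbiota, without overlap (log2 0.16, 95% interval -0.11 to 0.42). It shares 34.4% of its exonic bases with Zbtb37 on the opposite strand, and the procoagulant member Klkb1 shares 43.2% with Gm45753 on the same strand. Proc, protein C, was 618, 564 and 507 CPM in LDP females, against 603, 582 and 555 CPM in control females (log2 -0.04, 95% interval -0.32 to 0.23). The fibrinolysis genes Plg, Serpinf2 (antiplasmin) and Cpb2 had log2 changes of -0.03 to 0.07 in males, 0.03 to 0.09 in females and -0.11 to -0.06 in recipients; Plg was 3674, 3467 and 3106 CPM in LDP females, against 3103, 3169 and 3338 CPM in control females. Serpinf2 was 865, 885 and 873 CPM in LDP males, against 854, 818 and 830.0 CPM in control males, without overlap (log2 0.07, 95% interval -0.09 to 0.23).

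Members without overlap between groups numbered 4 of 39 (10.3%) in males, where 10.5% of all genes did not overlap (5.69% with the LDP group above); the 4, all above, were C4bp, Cfi, F9 and Serpinf2. In females there were 5 of 40 (12.5%), against 9.13% of all genes (4.97% above), all above: Mbl2, C2, Fga, Kng2 and Cfi. Recipients had 8 of 40 (20.0%), against 11.7% (6.13% above): Mbl1, Mbl2, C8g, F10, Serpinc1, F2 and Proc above, and Fgl1 below. The vitamin K dependent members F2, F7, F9, F10, Proc and Pros1, which need carboxylation after translation, had median log2 changes of 0.011 in males (3 of 6 higher), 0.067 in females (5 of 6 higher) and 0.053 in recipients (3 of 6 higher); none reached an unadjusted p under 0.05.

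Related genes outside the list were followed as companions, and none of them passed by edgeR either. Of other complement and coagulation genes, 17 of 37 tested (45.9%) were higher in LDP males, 23 of 33 (69.7%) in LDP females and 13 of 33 (39.4%) in recipients of LDP microbiota. The shares of all genes that were higher were 50.7%, 50.9% and 48.4%. At an unadjusted p under 0.05 there were 5, 6 and 0 of them (13.5%, 18.2% and 0.0%), against 5.23%, 4.51% and 5.11% of all genes. In males the 5 were lower and included C1qa (log2 -0.28, 95% interval -0.48 to -0.08) and C1qc (-0.25, 95% interval -0.44 to -0.06). C1q is made by macrophages, and the Kupffer cell markers given above were lower in the same mice; their part was not tested. In females the 6 included Colec11, a lectin of the same pathway as Mbl2 (log2 0.32, 95% interval 0.08 to 0.56), C3ar1, the C3a receptor (0.46, 95% interval 0.08 to 0.83), and Thbd, thrombomodulin of endothelium (-0.85, 95% interval -1.59 to -0.11). Colec11 is also on the list of stellate cell markers, of which 7 of 8 were higher in the same mice, 3 of them at an unadjusted p under 0.05; their part was not tested.

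Genes of the vitamin K cycle were higher in 2 of 6 cases in LDP males, 2 of 6 in LDP females and 1 of 6 in recipients of LDP microbiota, and the single gene at an unadjusted p under 0.05 was Aifm2, a vitamin K reductase, in females (log2 -0.41, 95% interval -0.69 to -0.14). Acute-phase genes outside the list were higher in 9 of 20 cases in LDP males, 15 of 20 in LDP females and 3 of 20 in recipients of LDP microbiota, with median log2 changes of -0.045, 0.168 and -0.237. At an unadjusted p under 0.05 were 20.0%, 5.0% and 25.0% of them, against 5.23%, 4.51% and 5.11% of all genes. The 5 in recipients were all lower. In recipients the smallest p was that of Lcn2, lipocalin 2, with means of 18.8 CPM in recipients of LDP microbiota and 56.0 CPM in recipients of control microbiota (log2 -1.58, SE 0.296, adjusted p = 0.846 by edgeR). Hamp, hepcidin, was higher in LDP females (log2 0.66, 95% interval 0.11 to 1.21) and LDP males (0.49, 95% interval 0.11 to 0.87), and Orm2 was lower in LDP males (-0.75, 95% interval -1.25 to -0.26). Among transcription factors and cytokine receptors of hepatocytes, 8 of 19 were higher in LDP males, 10 of 19 in LDP females and 6 of 19 in recipients of LDP microbiota. At an unadjusted p under 0.05 were 10.5%, 10.5% and 15.8% of them. The 2 in males were lower and the 2 in females higher. In recipients Il6ra, the interleukin 6 receptor, was at a log2 change of -0.54 (SE 0.202), Il1r1 at -0.80 (95% interval -1.52 to -0.08) and Lifr at 0.77 (adjusted p = 0.0412 by DESeq2 and 0.846 by edgeR).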

How the data were processed

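The authors deposited integer read counts for each gene and mouse, not normalized, with males and females in separate tables. Tools listed in the submitters' processing notes, with no role stated, are featureCounts 1.4.3-p1, HTSeq 0.5.3p9, STAR 2.3.0e and DESeq, with the mm10 build; per the labels' protocols, libraries were made with TruSeq v2. Strandedness and the handling of multiply matching reads are not given in the sources used here. Male IDs were matched to GENCODE M21 symbols (96.6%). Members and companion lists were chosen with earlier results of these data known.

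Each comparison used its own 6 libraries: filterByExpr (minimum count 10, total 15), TMM, and edgeR 4.0.16 (R 4.3.3) with its quasi-likelihood F test in the robust form, Benjamini-Hochberg adjustment over all genes and a threshold of 0.05. SEs were derived from F and are approximate. Differences of effects were fitted over shared names. Per-length levels use the length column of the male table. Values in every mouse are given, in the comparison concerned, for the 4 higher and 4 lower members of smallest p per comparison, the 3 per difference of effects, the highest 2 per role by length-scaled level (in 1 comparison or more) and members without overlap in at least 2 comparisons; companions of smallest p are named, up to 3 per list, and 1 is not reported here. Single-mouse departures were singled out after values were seen. Alternatives were DESeq2 1.42.0, other scaling factors, filters and fits, and leaving out each mouse. The fit was tested on simulated data.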

Additional observations from a re-analysis of the deposited data

How the results depend on the processing

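No member passed in any comparison under any edgeR setting tried, leaving out each mouse included (0 to 0 in males, females, recipients and both differences of effects); DESeq2 passed 1 in recipients, Fgl1, at a log2 change of -0.842. With all 12 female libraries sharing the spread, members at an unadjusted p under 0.05 numbered 1 in females (2 in their own fit) and 5 in recipients (3 in their own fit). Leaving out 1 mouse, that number ran from 0 to 3 in males (3 without LDP male 10, 2 without LDP male 11), from 0 to 3 in females (0 without control female 29, control female 30 or LDP female 52, 1 without LDP female 39) and from 2 to 5 in recipients (5 without control-microbiota recipient 3 or 7). The median change of the members ran from -0.010 to 0.010 in males, 0.051 to 0.096 in females and -0.070 to 0.068 in recipients. With 1 mouse left out, the direction turned for 20 of 39 members in males and for 19 of 40 both in females and in recipients, whose changes with all mice were at most 0.08, 0.16 and 0.17 in size. In females Serping1 was 0.010 with upper quartile factors and -0.058 to 0.045 with 1 mouse left out, Mbl1 -0.179 to 0.148 and Proc -0.118 to 0.027. The cause of these shifts was not tested. No paired analysis was possible because the labels give no pairing of mice, such as cages or litters. With 3 mice a group, the interval of 9 members in recipients, 3 in females and 1 in males reaches past a 1.5-fold change.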
